A study of Mus musculus with 3 samples.

Results

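Lung cells after thoracic irradiation in FLASH mode were compared with lung cells after irradiation in conventional (CONV) mode at the same dose, gene by gene. The cells compared were the barcodes of both irradiated libraries that held 200 detected genes or more and took no more than 10% of their UMIs (counted molecules) from mitochondrial genes. These were 2434 of 2507 barcodes in CONV and 2296 of 2394 in FLASH, 4730 in all, in a series of 6662 barcodes. Every gene was compared over all 4730 barcodes, and again after a split of the barcodes into those with at least 1 UMI of Ptprc and those with 0.

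The series holds 3 single-cell libraries of lung from female C57BL/6 mice aged 10 to 12 weeks, 1 from a non-irradiated control, 1 labelled 17 Gy CONV and 1 labelled 17 Gy FLASH. Irradiation was thoracic, under isoflurane, with electrons of 4.5 MeV. Lungs were dissociated with enzymes, passed through 100 and 40 µm filters and freed of red blood cells by lysis before droplet capture. The number of mice behind each library and the time between irradiation and collection are not given in the sources used here.

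Conventional irradiation delivers its dose over minutes at a low dose rate, and FLASH delivers the same dose almost at once at an ultra-high dose rate. Ionising radiation breaks DNA and activates p53, which turns on genes of cell cycle arrest and cell death. In the lung it can be followed by inflammation and later by fibrosis. Ptprc encodes CD45, a phosphatase on the surface of all nucleated blood cells, so a Ptprc UMI points to a leukocyte without proving one, and its absence in a shallow barcode does not exclude one.

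With 1 library in each group there is no replicate and no test: every difference below is one between 2 libraries, and mode, mouse and library cannot be told apart. Levels are in CPM, the UMIs of a gene scaled to the total UMIs of the stated cells. Ratios are FLASH over CONV with exact 95% intervals, and the intervals cover counting error only. The control, CONV and FLASH libraries kept 1728, 2434 and 2296 barcodes and 7011348, 7301429 and 5336344 UMIs. Median UMIs per barcode were 2962.5, 2364.5 and 1804, so the FLASH library was the shallowest. CONV and FLASH shared 5 barcode sequences. A count of 3 UMIs, the limit that a count of 0 allows, was 0.411 CPM in CONV and 0.562 CPM in FLASH. Cell classes were rebuilt here by clustering and carry the ending "-like"; clusters without a clear class are called by their leading genes. The control is given beside each value for orientation, and 23.6% of its barcodes were thymocyte-like, against 0.0411% in CONV and 0 of 2296 in FLASH.

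Most genes lay close together in the 2 modes. Of 9394 genes with at least 100 UMIs over both libraries, 53.5% differed by at most 10%, and the median log2 ratio was -0.01. At least 1.5-fold higher in FLASH were 111 genes (1.18%), and at least 1.5-fold lower were 104 (1.11%). Among Ptprc-positive barcodes (753 in CONV, 665 in FLASH) 103 of 4149 genes were higher (2.48%) and 80 were lower (1.93%). Among Ptprc-zero barcodes (1681 and 1631) 137 of 8240 were higher (1.66%) and 92 were lower (1.12%). Of the Ptprc-positive barcodes 92.2% in CONV and 93.2% in FLASH belonged to leukocyte classes, so ratios in this set include genes of other cells. Several of these genes rest on very few cells, by the share of a single barcode in the UMIs of the higher library. In the Ptprc-positive set this share was above 20% for 24 of the 183 genes past 1.5-fold, and above 50% for 12.

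**Figure D1:**
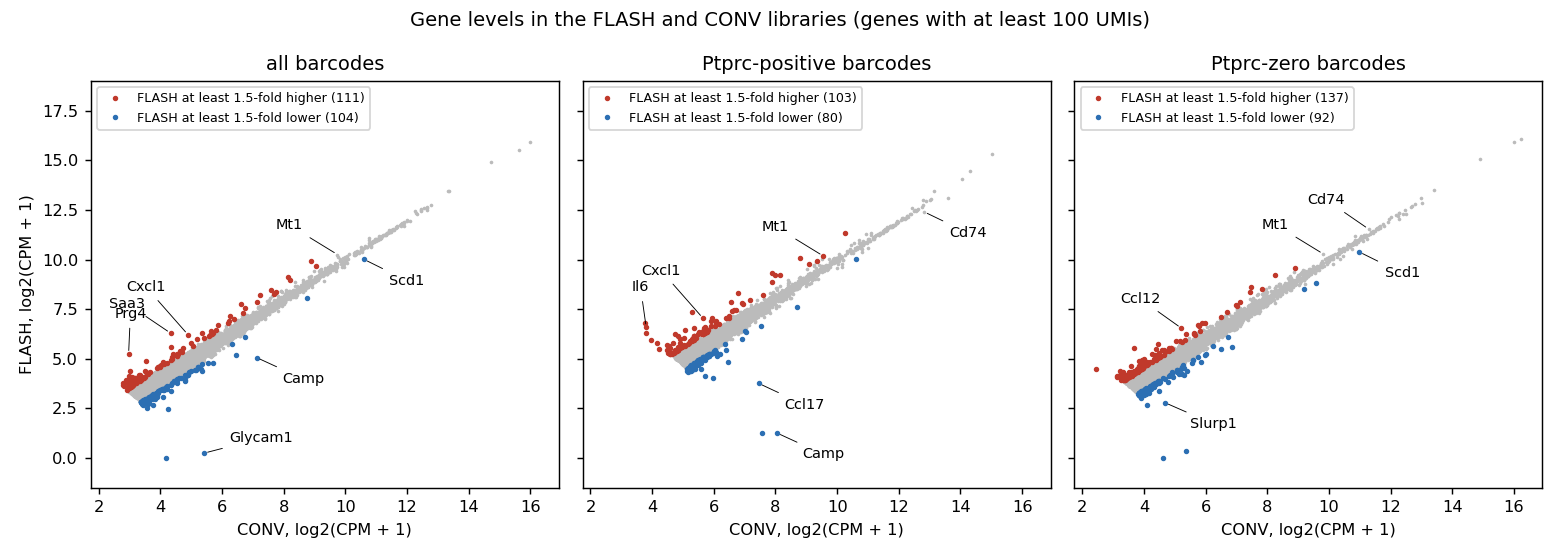
Each point is a gene with at least 100 UMIs over both libraries, with its level in CONV on the x axis and in FLASH on the y axis, as log2(CPM + 1), for all barcodes, Ptprc-positive and Ptprc-zero barcodes. Red points are at least 1.5-fold higher in FLASH (111, 103 and 137 genes) and blue points at least 1.5-fold lower (104, 80 and 92); most points lie on the diagonal.

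The highest ratios over all barcodes included genes of one small cluster with macrophage markers. Prg4, which encodes the lubricating proteoglycan lubricin, stood at 4.28 CPM in the control, 6.85 with CONV and 36.7 with FLASH, a ratio of 5.36 (3.91 to 7.47). Saa3, an acute-phase serum amyloid, stood at 23.5, 19.2 and 77.6 CPM, a ratio of 4.05 (3.33 to 4.94). Both genes came mostly from a cluster led by Saa3, Prg4, Serpinb2, Cd5l and Alox15, which counted 2 control, 8 CONV and 18 FLASH barcodes. It held 92% of the Prg4 UMIs in CONV and 95.9% in FLASH. For Saa3 it held 71.4% and 93.5%. Interstitial macrophage markers summed to 9568 CPM in CONV and 8960 in FLASH within it, and T cell markers to 20.5 and 0. Alveolar type 2 markers (3757 and 2084 CPM) and club cell markers (6386 and 6452 CPM) were also present in it; their part was not tested. The share of the cluster was 0.329% of CONV and 0.784% of FLASH barcodes, a difference of 0.455 points (0.0262 to 0.935). Without its barcodes, the Saa3 ratio was 0.932 and that of Prg4 was 2.76.

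Several neutrophil-attracting and inflammatory cytokines were also higher in FLASH. Cxcl1, a chemokine that draws neutrophils, stood at 16.8 CPM in the control, 28.8 with CONV and 73.7 with FLASH (210 and 393 UMIs from 66 and 89 barcodes), a ratio of 2.56 (2.16 to 3.04). It was 2.31 without the cluster and 1.78 when both libraries were given the same class mix. In interstitial macrophage-like barcodes Cxcl1 was 251 CPM in CONV and 746 in FLASH, a ratio of 2.97 (2.17 to 4.09). Among Ptprc-positive barcodes Il6, the interleukin that drives the acute-phase response, was 3.23 CPM in the control, 13 with CONV and 94.7 with FLASH. These are 27 UMIs from 8 barcodes against 136 from 19, a ratio of 7.29 (4.795 to 11.46). The Saa3-Prg4 cluster held 23 of these 27 and 100 of these 136 UMIs. The Il6 ratio was 2.47 with the same class mix, and 13.4 without the cluster, on the few CONV UMIs outside it. It was 2.41 (1.95 to 2.98) over all barcodes and 1.33 (1.02 to 1.74) among Ptprc-zero barcodes. Ccl12, a ligand of the monocyte receptor Ccr2, was 36.0 CPM in CONV and 92.6 in FLASH among Ptprc-zero barcodes, a ratio of 2.57 (2.15 to 3.08). Of its UMIs 93.1% in CONV and 94.7% in FLASH came from interstitial macrophage-like barcodes. With the same class mix the Ccl12 ratio was 1.87. Ccl2, with 78.1% and 81.5% of its UMIs in that class, had a ratio of 1.01 among Ptprc-zero barcodes. It was 0.753 with the same class mix.

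The list of cytokines and NF-kB feedback genes as a whole leaned towards FLASH over all barcodes. Of 23 measured members (at least 10 UMIs) 19 were higher and 4 lower, with a median log2 ratio of 0.19, and 3 of the 21 with 100 UMIs were past 1.5-fold higher, beside 1.18% of all genes. The summed level was 1809 CPM in the control, 2336 with CONV and 2827 with FLASH. In Ptprc-positive barcodes 5 of 18 members were past 1.5-fold higher, beside 2.48% of all genes: Il6, Cxcl1, Osm, Cxcl2 and Il1a. The Il1a ratio fell from 1.51 to 1.12 without the Saa3-Prg4 cluster, and that of Cxcl1 in this set from 2.68 to 1.28 with the same class mix. Cxcl2, a second neutrophil attractant, was 205, 543 and 877 CPM, a ratio of 1.61 (1.49 to 1.75) (1.13 without the Saa3-Prg4 cluster). Osm, a cytokine of the interleukin 6 family made by macrophages and neutrophils, was 46.1, 59.2 and 118 CPM, a ratio of 1.99 (1.57 to 2.53). Its ratio was 1.53 without the cluster. The most abundant members differed little: Il1b was 313, 689 and 724 CPM (1.05, 0.969 to 1.14), and Nfkbia, the inhibitor that NF-kB induces, was 452, 616 and 635 CPM (1.03, 0.946 to 1.12).

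Interstitial macrophage-like barcodes went the other way for most of this list. There 15 of 18 measured members were lower in FLASH and 3 were higher, with a median of -0.32, and the summed level was 25383 CPM in CONV and 21360 in FLASH (0.842, 0.809 to 0.876). Ccl4, a chemokine for T cells and NK cells, was 1540 CPM in the control, 1621 with CONV and 608 with FLASH, a ratio of 0.375 (0.302 to 0.462). Tnf was 108, 312 and 153 CPM (0.491, 0.309 to 0.762), and Ccl3 was 993, 936 and 577 CPM (0.617, 0.487 to 0.778). Cxcl1 was thus high while the chemokines Ccl3 and Ccl4 were low in the same class. Markers of type 2 dendritic cells also differed in this class, with 1725 CPM in CONV and 853 in FLASH; their part in these ratios was not tested.

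MHC class II genes, whose products present peptides to CD4 T cells, were lower in FLASH in monocytes. In non-classical monocyte-like barcodes (113 in CONV, 106 in FLASH), the patrolling monocytes of the vessel wall, H2-Ab1 was 235 CPM in the control, 1383 with CONV and 283 with FLASH. The ratio was 0.204 (0.149 to 0.275). H2-Aa was 365, 1409 and 339 CPM (0.241, 0.180 to 0.317), and H2-Eb1 was 144, 705 and 175 CPM (0.249, 0.164 to 0.365). Cd74, the invariant chain that guides class II molecules, was 3366, 6920 and 2580 CPM (0.373, 0.336 to 0.413). CONV was thus the high library for these 4 genes; FLASH lay below the control for H2-Aa and Cd74 and above it for H2-Ab1 and H2-Eb1. All 4 members with 100 UMIs were past 1.5-fold lower, beside 2% of the 650 genes measured in the class (13 genes). The other measured members, H2-DMa and H2-DMb1, which help to load peptides, were 0.791 (0.344 to 1.72) and 0.503 (0.195 to 1.16).

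The promoters of H2-Aa and H2-Eb1 are shown because class II genes were lower together in this class and are known to share a promoter module, part of which is the Y box. The 250 bases before the start of each gene are from RefSeq (GRCm38.p6), in lower case with the Y box letters CTGATTGG in capitals.
H2-Aa: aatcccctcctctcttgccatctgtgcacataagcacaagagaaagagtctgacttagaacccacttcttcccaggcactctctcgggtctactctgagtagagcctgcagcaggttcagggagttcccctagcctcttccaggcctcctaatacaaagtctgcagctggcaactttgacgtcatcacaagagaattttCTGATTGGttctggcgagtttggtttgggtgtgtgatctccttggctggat
H2-Eb1: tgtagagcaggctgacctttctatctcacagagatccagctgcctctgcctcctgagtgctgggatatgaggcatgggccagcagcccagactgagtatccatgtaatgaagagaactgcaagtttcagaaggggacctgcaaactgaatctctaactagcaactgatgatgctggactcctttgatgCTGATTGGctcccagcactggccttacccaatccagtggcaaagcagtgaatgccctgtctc
H2-Aa lies on the minus strand (chr17:34287824-34288073) and H2-Eb1 on the plus strand (chr17:34305617-34305866). The first base of the capitals lies 51 bases before the start of H2-Aa and 62 before that of H2-Eb1. This motif was chosen after the values were seen and was searched on both strands. Of the 11 listed class II genes 8 were in the promoter table and 4 held it: H2-Aa, H2-Eb1, H2-Eb2 and H2-Oa. Of all 32851 promoters of this length 1258 held it (3.83%). The match is a description of the letters.

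The share of barcodes with a UMI moved with the level. H2-Ab1 was detected in 48 of 113 non-classical monocyte-like barcodes of CONV and in 19 of 106 of FLASH, 42.5% and 17.9%, a difference of -24.6 points (-35.6 to -12.5). The control share was 20.6%. After thinning each barcode to 1000 UMIs it was 35.4% and 12.4% (-23.0 points, -33.5 to -11.8). In T-like barcodes, which should lack class II, the shares were 15.97% and 8.37%, and 10.1% and 7.20% after thinning. The thinned FLASH share in the monocytes was thus near the T-like one, and the thinned CONV share was well above it. Median UMIs were 2200 in CONV and 1510.5 in FLASH for the monocytes, and 1768.5 and 1422 for T-like barcodes. The class's own markers were 3212 CPM in CONV and 3926 in FLASH. Type 2 dendritic markers, also high in class II cells, were 135 and 45.3 CPM; their part was not tested.

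Other antigen-presenting classes had ratios nearer to 1. In type 2 dendritic-like barcodes H2-Aa was 1.02 (0.936 to 1.105) and H2-Ab1 0.865 (0.799 to 0.935). Classes that should lack class II also had low ratios. H2-Aa was 0.405 (0.179 to 0.832) in T-like barcodes and 0.400 (0.204 to 0.747) in NK-like ones, on 46 and 52 UMIs. Over 12 measured classes H2-Aa was lower in FLASH in 7 and higher in 5. The part of RNA from other cells in these ratios was not tested. In classical monocyte-like barcodes all 7 measured class II members were lower in FLASH, with a median of -0.55. Their summed level was 6589 CPM in the control, 24174 with CONV and 16892 with FLASH (0.699, 0.673 to 0.725). The thinned share with H2-Ab1 was 50.9% and 40.8% in this class, a difference of -10.1 points whose interval (-22.4 to 2.73) holds 0. In alveolar macrophage-like barcodes 7 of 7 were lower (0.704, 0.649 to 0.763). B-like barcodes had 9 of 11 higher (31430 and 33098 CPM, 1.05) and interstitial macrophage-like barcodes 3 of 7 higher (36692 and 37231 CPM, 1.01). Over Ptprc-positive barcodes the summed class II level was 10258, 12877 and 9778 CPM (0.759, 0.744 to 0.775), and over Ptprc-zero barcodes it was 8412, 4191 and 5076 CPM (1.21, 1.19 to 1.23). In the Ptprc-positive set 6 of 10 measured members were lower and 4 higher, with 0 past 1.5-fold, and H2-DMb2, a chain of the peptide-loading H2-DM, was 1.28 (1.02 to 1.60). With the same class mix the list's median was -0.12 in the Ptprc-positive and -0.03 in the Ptprc-zero set, and with the split by 8 immune genes -0.01 and 0.05. The split itself moved with this: Ptprc was detected in 37 of 52 type 2 dendritic-like barcodes of CONV and in 16 of 40 of FLASH. When barcodes were split by at least 2 UMIs over 8 immune genes, the Cd74 ratio in the immune set was 0.932 in place of 0.755.

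**Figure D2:**
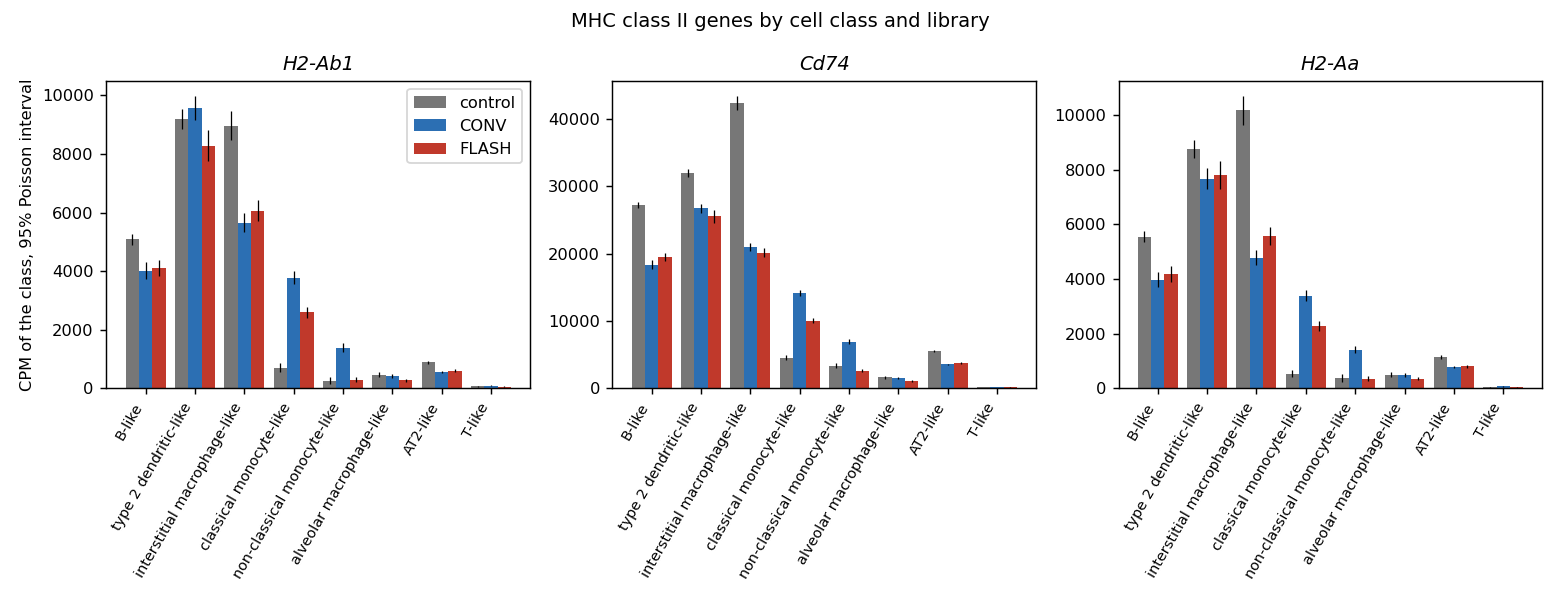
Bars give the level of H2-Ab1, Cd74 and H2-Aa in CPM of each class in the control (grey), CONV (blue) and FLASH (red) libraries, with 95% Poisson intervals, for 8 classes. H2-Ab1 in non-classical monocyte-like barcodes is 1383 CPM in CONV against 283 in FLASH, while the bars of CONV and FLASH are near each other in B-like and interstitial macrophage-like barcodes.

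Immediate early genes, transcription factors and feedback inhibitors that respond within minutes to stress, growth factors or handling, were slightly and broadly higher in FLASH. Over all barcodes 23 of 24 measured members were higher, with a median of 0.17. Of 23 with 100 UMIs 1 was past 1.5-fold higher, beside 1.18% of all genes. The summed level was 7893 CPM in the control, 8104 with CONV and 9166 with FLASH (1.13, 1.12 to 1.14). Among Ptprc-zero barcodes Fos was 1436, 1275 and 1416 CPM (1.11, 1.07 to 1.15) and Egr1 was 369, 343 and 386 CPM (1.13, 1.05 to 1.21). Socs3, an inhibitor of JAK-STAT signalling, differed more, with 148, 102 and 166 CPM, a ratio of 1.62 (1.44 to 1.82). Dusp1, a phosphatase that ends MAP kinase signals, was 620, 463 and 656 CPM (1.42, 1.339 to 1.497), and Zfp36, which destabilises cytokine transcripts, was 294, 251 and 331 CPM (1.32, 1.22 to 1.42). For Fos, Egr1, Socs3, Dusp1 and Zfp36 CONV was below both other libraries, and FLASH was near the control.

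Alveolar type 2-like (AT2-like) barcodes, the surfactant-producing epithelium, had this direction too. There 20 of 23 members were higher, and 4 of 18 with 100 UMIs were past 1.5-fold, beside 1.27% of 2513 genes. Socs3 was 101 CPM in the control, 73.7 with CONV and 138 with FLASH (1.87, 1.46 to 2.40). Egr1 was 576, 250 and 400 CPM (1.60, 1.40 to 1.84), Zfp36 was 327, 195 and 298 CPM (1.53, 1.30 to 1.79), and Ier3 was 47.4, 38.4 and 59.5 CPM (1.55, 1.07 to 2.23). Socs3 was detected in 89 of 411 AT2-like barcodes of CONV and in 107 of 333 of FLASH, 21.7% and 32.1%, a difference of 10.5 points (4.09 to 16.9). After thinning it was 6.33% and 12.0% (5.69 points, 1.55 to 10.1). T-like barcodes, which can express Socs3 themselves, had thinned shares of 7.99% and 12.0% (4.01 points, -1.06 to 9.31), so the AT2-like shares are no higher than those. B-like barcodes went against it, with 12 of 18 lower and a median of -0.27, and in alveolar macrophage-like barcodes the summed level was 5602 and 5438 CPM (0.971, 0.918 to 1.03).

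Dusp1, Socs3 and, outside the list, Cyr61 were followed over the 13 largest classes; they were chosen after their values were seen. Dusp1 was higher in FLASH in 13 of 13 classes, 8 of them with an interval above 1, also when classes were scaled by their median ratio or without mitochondrial, ribosomal and haemoglobin genes. Its highest ratio was in a fibroblast-like cluster led by Mmp3 and Mgp, at 622, 354 and 907 CPM (2.56, 2.09 to 3.15). Socs3 was at or above 1 in 11 of the 11 classes with 30 UMIs, 5 of them with an interval above 1. Its ratios ran from 1.00 (0.755 to 1.33) in interstitial macrophage-like to 1.87 in AT2-like barcodes. Below that limit, alveolar macrophage-like barcodes had 9 UMIs in CONV and 0 in FLASH, and B-like ones 8 and 13. Cyr61, a matrix protein induced by mechanical load and serum, was 1449 CPM in alveolar fibroblast-like barcodes of the control, 445 in CONV and 933 in FLASH (2.10, 1.76 to 2.50). It was higher in 6 of 7 measured classes, 4 of them with an interval above 1, with 1.02 in AT2-like and 0.899 in capillary-like barcodes. A lean towards FLASH over most classes was not particular to these genes. Malat1, also outside the list, was higher in 11 of 13 classes, 10 of them with an interval above 1. Its ratios ran from 0.969 to 1.27.

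**Figure D3:**
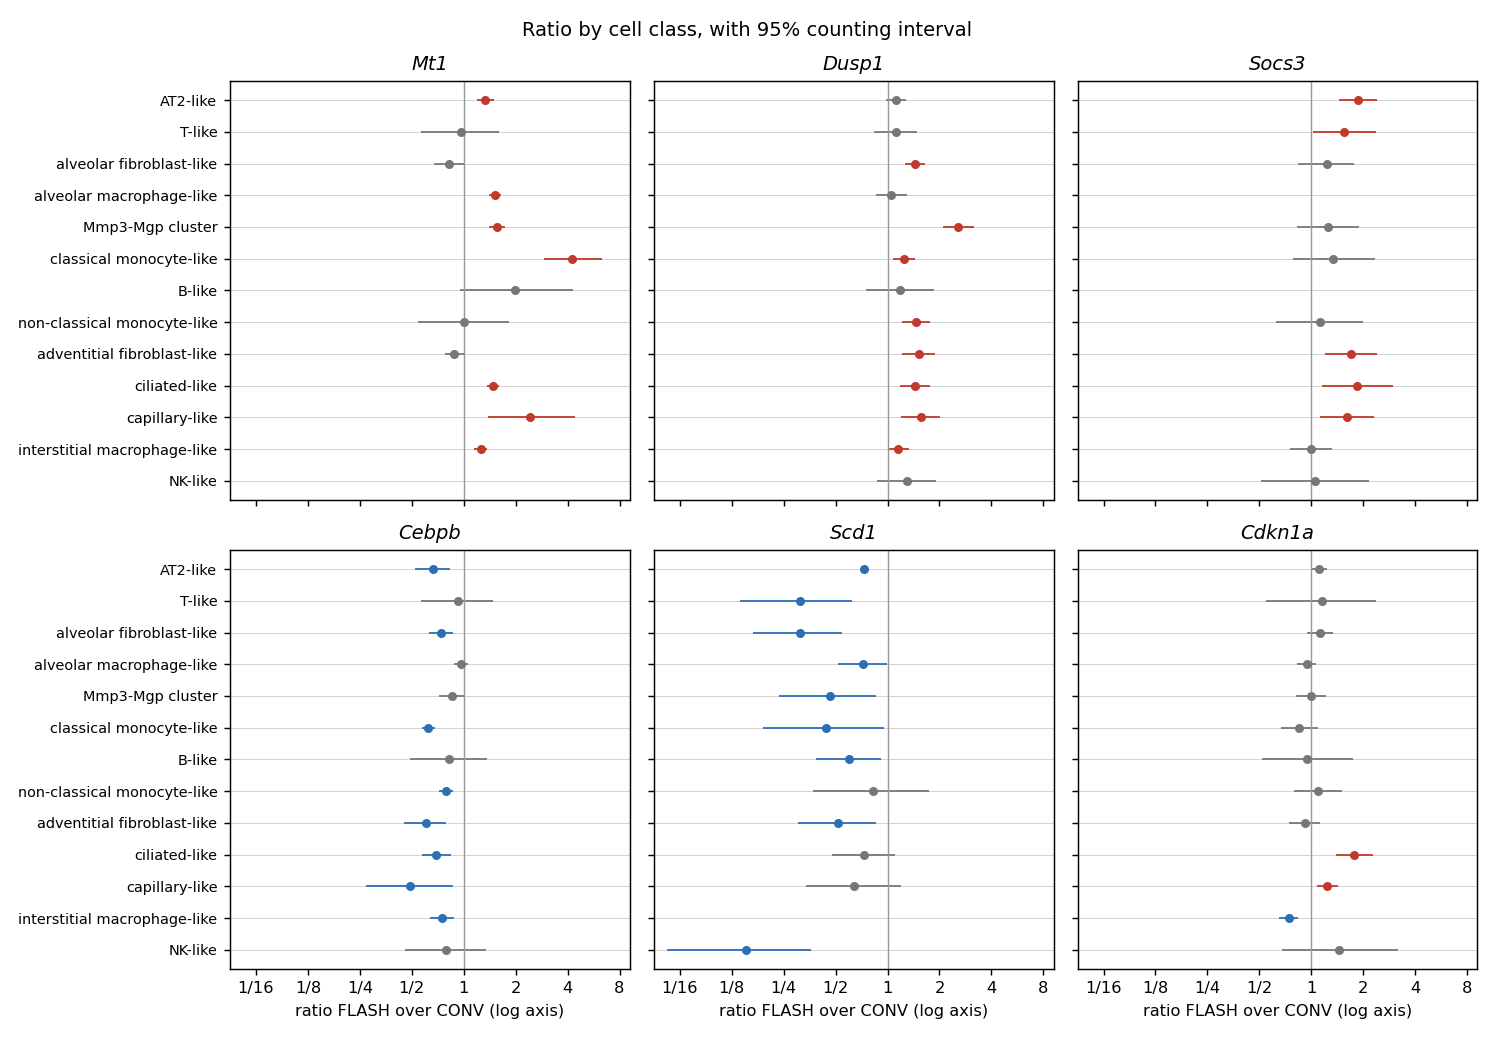
Points give the ratio FLASH over CONV (log axis) of Mt1, Dusp1, Socs3, Cebpb, Scd1 and Cdkn1a in the 13 largest classes with at least 30 UMIs of the gene, with 95% counting intervals. Red is an interval above 1, blue below 1 and grey one that holds 1; Dusp1 lies above 1 in 13 classes and Cebpb below 1 in 13.

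The metallothioneins Mt1 and Mt2, small proteins that bind zinc and copper and are induced by glucocorticoids, metals and oxidants, were higher in FLASH in most classes, and not in alveolar or adventitial fibroblast-like barcodes. Over all barcodes Mt1 was 518 CPM in the control, 857 with CONV and 1223 with FLASH (1.43, 1.38 to 1.48). In the Ptprc-zero set Mt2 was 236, 303 and 374 CPM (1.23, 1.15 to 1.32). Mt1 was higher in 9 of 12 classes, 7 of them with an interval above 1, and lower in 3, and in 8 of 12 under either other scaling, where it was below 1 in non-classical monocyte-like barcodes. In classical monocyte-like barcodes it was 18.6, 122 and 517 CPM (4.25, 2.93 to 6.32), detected in 11.6% of thinned CONV and 22.5% of thinned FLASH barcodes (10.9 points, 1.13 to 20.4). T-like barcodes gave 76.8 and 73.7 CPM, and thinned shares of 7.29% and 5.60%. Alveolar macrophage-like barcodes, which carry much more, had 2426, 2150 and 3276 CPM (1.52, 1.41 to 1.65). Alveolar fibroblast-like (0.821, 0.669 to 1.00) and adventitial fibroblast-like barcodes (0.883, 0.774 to 1.01) did not share this direction. Mt2 was higher in 6 of 8 classes and lower in these same 2 classes, at 0.614 (0.438 to 0.850) and 0.671 (0.542 to 0.828). Of the 14 members of the glucocorticoid and metallothionein list 11 were higher and 3 lower among Ptprc-zero barcodes. The glucocorticoid targets Tsc22d3 (296 and 297 CPM) and Fkbp5 (28.7 and 30.5 CPM) stood at nearly the same level there. Sgk1, a kinase of ion transport, was 1.19 (1.03 to 1.38), the cell cycle inhibitor Cdkn1c 1.36 (1.13 to 1.65), and the transcription factor Klf9 0.892 (0.816 to 0.975).

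Cebpb, which encodes a transcription factor of macrophage activation and the acute-phase response, was lower in FLASH. It stood at 61.5 CPM in the control, 942 with CONV and 787 with FLASH (0.836, 0.804 to 0.869), so both irradiated libraries lay far above the control. It was lower in FLASH in 13 of 13 classes under each of 3 scalings, 8 of them with an interval below 1. Classical monocyte-like barcodes had 158, 4645 and 2892 CPM (0.623, 0.569 to 0.680), and non-classical monocyte-like ones 509, 5360 and 4232 CPM (0.789, 0.722 to 0.863). In alveolar macrophage-like barcodes the values were 1047, 2150 and 2071 CPM (0.963, 0.880 to 1.05). Non-classical and classical monocyte-like barcodes held 32.0% and 30.8% of the Cebpb UMIs of the Ptprc-positive CONV set. The part of RNA from other cells in the ratios of the remaining classes was not tested.

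Scd1, a desaturase that makes monounsaturated fatty acids, was lower in FLASH, and other lipid synthesis genes differed less. Among Ptprc-zero barcodes 15 of 21 measured members of the cholesterol and fatty acid list were lower and 6 higher, with a median of -0.18 and a summed level of 2182 CPM in the control, 3473 with CONV and 2643 with FLASH (0.761, 0.743 to 0.780). Of 19 with 100 UMIs 1 was past 1.5-fold lower, beside 1.12% of all genes. This was Scd1, which made up most of that sum, at 995, 2021 and 1336 CPM (0.661, 0.639 to 0.683), and which was 0.719 with the same class mix. In AT2-like barcodes Scd1 was 4250, 6553 and 4799 CPM (0.732, 0.708 to 0.757). Fasn, the fatty acid synthase, was 454, 475 and 445 CPM there (0.936, 0.833 to 1.05). Scd1 was lower in 12 of 12 measured classes, among them T-like (88.0 and 27.3 CPM) and NK-like barcodes (248 and 37.7 CPM). In NK-like barcodes 28 of the 39 CONV UMIs of Scd1 came from 1 barcode, and in alveolar fibroblast-like ones 43 of 79. Sftpc, the surfactant protein C of AT2 cells, was 3331 and 2270 CPM in T-like and 7047 and 2580 CPM in NK-like barcodes; the part of RNA from AT2 cells was not tested.

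Targets of p53 differed little between the modes. The 15 arrest and feedback targets summed to 1550 CPM in the control, 2483 with CONV and 2608 with FLASH (1.05, 1.03 to 1.07), with 10 higher, 5 lower and 0 of 14 past 1.5-fold. Cdkn1a (p21, a brake on cyclin-dependent kinases) was 148, 588 and 629 CPM (1.07, 1.02 to 1.12). Phlda3 was 71.8, 235 and 225 CPM and Gdf15 was 5.27, 39.8 and 40.3 CPM among Ptprc-zero barcodes, close together in CONV and FLASH and above the control. Over 13 classes Cdkn1a was higher in 7 and lower in 6, and higher in 8 and lower in 5 when classes were scaled by their median ratio. The intervals excluded 1 upwards in capillary-like (897, 2024 and 2508 CPM, 1.24, 1.08 to 1.42) and ciliated-like barcodes (374, 204 and 364 CPM, 1.78, 1.39 to 2.29), and downwards in interstitial macrophage-like barcodes (633, 3029 and 2237 CPM, 0.739, 0.654 to 0.833). The ciliated-like ratio stands against a class median log2 ratio of 0.18 and 5.19% of 1579 genes past 1.5-fold higher, with club cell markers at 147920 CPM in CONV and 53492 in FLASH in that class.

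Targets of cell death and repair gave 10 higher and 6 lower, with Bax, which opens mitochondria in apoptosis, at 130, 244 and 267 CPM among Ptprc-zero barcodes (1.09, 1.00 to 1.19). In the same set the death receptor Fas was 65.7, 37.5 and 50.8 CPM (1.35, 1.105 to 1.657), and Pmaip1, the BH3 protein Noxa, was 32.7, 10.5 and 15.9 CPM (1.51, 1.03 to 2.21). DNA repair genes were split 11 to 11, with a median of -0.03. Mitosis genes were lower in FLASH in the Ptprc-positive set: 15 of 16 were lower, at a summed 302 CPM in CONV and 205 in FLASH (0.681, 0.591 to 0.783). Top2a, which untangles chromosomes, was 36.1 and 23.7 CPM (75 and 34 UMIs from 25 and 15 barcodes), and Birc5, survivin, was 46.7 and 30.6 CPM (97 and 44 UMIs). With the same class mix the list's median went from -0.53 to -0.22, the ratio of Top2a from 0.656 to 0.867, that of Birc5 from 0.656 to 0.838 and that of Ube2c from 0.852 to 1.09. The control stood at 1926 CPM for this list, with a different cell make-up. Thymocyte-like barcodes were 264 of its 853 Ptprc-positive barcodes, 1 of 753 in CONV and 0 of 665 in FLASH. S phase genes were at 300 and 297 CPM in the same set (0.992, 0.875 to 1.12).

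Lists of fibrosis genes differed little between the modes over the broad sets. TGF-beta pathway genes were 12 higher and 9 lower over all barcodes, with a median of 0.03 and 0 of 20 past 1.5-fold. Tgfb1 itself was 45.2 CPM in the control, 83.1 with CONV and 82.3 with FLASH among Ptprc-zero barcodes (0.991, 0.855 to 1.15), and 90.8, 325 and 279 CPM among Ptprc-positive ones (0.858, 0.757 to 0.973). Over 10 measured classes Tgfb1 was lower in FLASH in 9 and higher in 1, with 2 intervals below 1. These were in interstitial macrophage-like (0.522, 0.330 to 0.807, on 70 and 31 UMIs) and classical monocyte-like barcodes (0.750, 0.613 to 0.917). Collagens and elastic fibre genes were lower for 17 of 25 members in the Ptprc-zero set and summed to 3988 CPM in CONV and 3628 in FLASH (0.910, 0.890 to 0.929). Mfap4, a microfibril protein, was 769, 1116 and 887 CPM (0.795, 0.762 to 0.829), and Col1a2 was 207, 274 and 231 CPM (0.844, 0.775 to 0.917). Col3a1 was 267, 243 and 242 CPM (0.998, 0.917 to 1.09). By themselves, bulk sums of this kind cannot tell fewer fibroblasts from less RNA per fibroblast. Alveolar fibroblast-like barcodes were 10.1% of CONV and 8.75% of FLASH. Within adventitial fibroblast-like barcodes Mfap4 was higher, at 1805, 1271 and 1972 CPM (1.55, 1.34 to 1.79). Most Ptprc-zero Mfap4 UMIs lay in alveolar fibroblast-like barcodes, with 3831 UMIs (65.7%) over 240 such barcodes in CONV and 2080 (60.1%) over 200 in FLASH. These are raw UMIs, not scaled to depth. The class as a whole was shallower in FLASH, with median UMIs per barcode of 1989 in CONV and 1390 in FLASH. With the same class mix the Ptprc-zero ratio of Mfap4 was 0.918.

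In alveolar epithelium surfactant genes were near each other in both modes, and genes of the transitional state were higher in FLASH. In AT2-like barcodes 5 surfactant and lamellar body genes were higher and 9 lower, with a median of -0.0038: Sftpc was 236800 CPM in the control, 213400 with CONV and 221800 with FLASH. Transitional epithelium genes, which AT2 cells express after injury on their way to type 1 cells, were higher for 12 of 12 measured members, at a summed 1569, 1063 and 1368 CPM (1.29, 1.20 to 1.38). Krt8 was 216, 134 and 186 CPM (1.39, 1.14 to 1.69), Krt18 was 341, 211 and 273 CPM (1.29, 1.103 to 1.517), and Anxa2 was 338, 214 and 283 CPM (1.33, 1.13 to 1.55). None of 8 members with 100 UMIs was past 1.5-fold, and FLASH lay between CONV and the control for these 3 genes. In adventitial fibroblast-like barcodes 11 of 12 surfactant genes were lower in FLASH, 8926 against 3120 CPM, and 4 of 4 with 100 UMIs were past 1.5-fold, beside 2.71% of 702 genes. Surfactant proteins are products of AT2 and club cells.

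**Figure D4:**
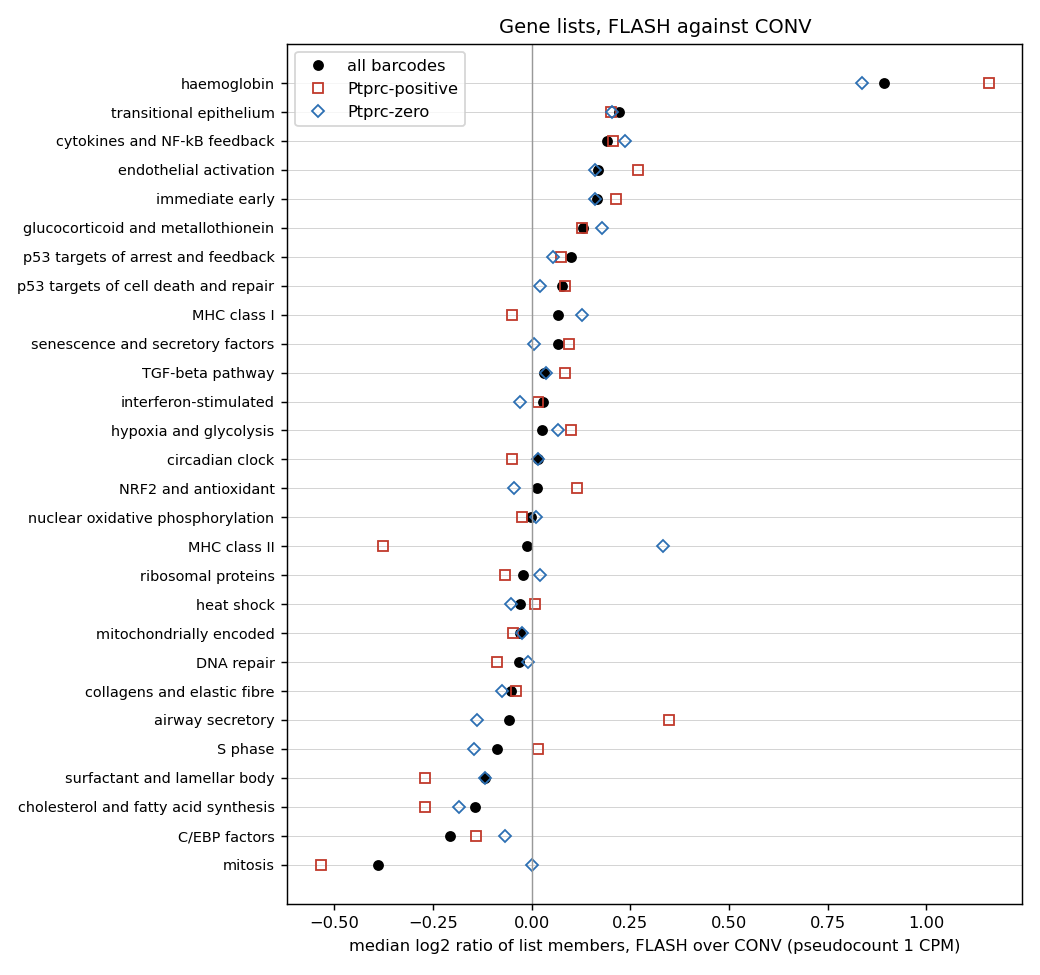
Points give the median log2 ratio FLASH over CONV (pseudocount 1 CPM) of the measured members of each gene list, for all barcodes (black circles), Ptprc-positive (red squares) and Ptprc-zero barcodes (blue diamonds). Haemoglobin is highest (0.89 over all barcodes) and mitosis lowest (-0.39); MHC class II lies on opposite sides of 0 in the Ptprc-positive (-0.38) and Ptprc-zero sets (0.33), which becomes -0.12 and -0.03 with the same class mix.

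Haemoglobin genes, which mark red blood cells and their free RNA, stood at 41.9, 682 and 1322 CPM in control, CONV and FLASH. Of 4 members with 100 UMIs 4 were past 1.5-fold higher, beside 1.18% of all genes over all barcodes. Interferon-stimulated genes were split 13 to 11 over all barcodes, with a median of 0.03. In capillary-like barcodes 12 of 15 were higher, at a summed 8981, 7648 and 9108 CPM (1.19, 1.11 to 1.28). Ly6a, an endothelial surface protein also called Sca-1, was 4025, 3465 and 4451 CPM there (1.28, 1.16 to 1.43). Heat shock, circadian clock, nuclear oxidative phosphorylation and hypoxia and glycolysis lists had medians between -0.03 and 0.03 over all barcodes. The clock factor Dbp was 45.7 CPM in the control, 205 with CONV and 208 with FLASH among Ptprc-zero barcodes (1.01, 0.924 to 1.11). Among Ptprc-positive barcodes Dbp was 14.7, 49.1 and 33.4 CPM (0.681, 0.473 to 0.969), on 102 and 48 UMIs in CONV and FLASH. Over 7 measured classes it was higher in 5 and lower in 2. The 1 interval above 1 was in AT2-like barcodes (1.26, 1.068 to 1.485).

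NK-like barcodes, 73 in CONV and 104 in FLASH, had more cytotoxic granule RNA in FLASH. Gzma, granzyme A, was 6266 CPM in the control, 3721 with CONV and 6308 with FLASH (1.70, 1.53 to 1.88). Gzmb, granzyme B, was 1227, 350 and 822 CPM (2.35, 1.70 to 3.28), and the chemokine Ccl5 was 20090, 17240 and 26510 CPM (1.54, 1.47 to 1.62). CONV was the lowest library for these 3 genes. They stand beside 5.43% of 368 genes past 1.5-fold higher in the class. The NK marker list summed to 5387 and 8468 CPM (1.57, 1.44 to 1.71). It includes Gzma, whose 3721 and 6308 CPM made up most of both sums, so it is not separate from the Gzma value. T cell markers were 1336 and 1356 CPM. Erythroid markers were 102 and 5505 CPM and AT2 markers 8293 and 3157 CPM in this class; their part in these ratios was not tested. The NK-like share was 2.999% of CONV and 4.53% of FLASH barcodes, a difference of 1.53 points (0.447 to 2.64).

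The genes lowest in FLASH came from few barcodes of the CONV library. Resp18, a peptide of neuroendocrine secretory granules, had 126 UMIs from 17 barcodes in CONV and 0 in FLASH and the control. Calca, which encodes the neuropeptide CGRP of pulmonary neuroendocrine cells, had 80 UMIs from 19 barcodes in CONV and 1 UMI in FLASH, a ratio of 0.0171 (0.000428 to 0.0981). Most of their UMIs, 91.3% and 76.3%, lay in club-like barcodes. Glycam1, a mucin-like ligand of L-selectin from high endothelial venules, had 306 UMIs in CONV and 1 in FLASH, with 52.0% from 1 barcode. Camp, the antimicrobial cathelicidin of immature neutrophils, had 1011 UMIs in CONV and 173 in FLASH (0.234, 0.198 to 0.275), of which 96.5% and 96.0% lay in neutrophil-like barcodes. In the Ptprc-positive set its top barcode alone held 65.4% of the CONV UMIs. There Ccl17, a dendritic cell chemokine, had 364 UMIs from 20 barcodes against 18 from 4, a ratio of 0.0715 (0.0419 to 0.115). With the split by 8 immune genes the Ccl17 ratio was 0.877, and Siglech, of plasmacytoid dendritic cells, went from 0.0933 to 0.677. Slurp1, almost wholly from mesothelium-like barcodes, was 24.4, 24.7 and 5.90 CPM among Ptprc-zero barcodes (0.239, 0.146 to 0.374), with 23 such barcodes in CONV and 18 in FLASH. Ubd, an interferon-induced ubiquitin-like protein, had 46 UMIs in CONV and 0 in FLASH, and Car1, a carbonic anhydrase, had 36 and 0, with 94.4% of the 36 from 1 barcode.

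Several of the highest ratios rested on single barcodes. Ccl22, a chemokine of mature dendritic cells, was 40.8, 3.01 and 14.2 CPM over all barcodes (4.73, 2.91 to 7.98), and 64.5% of its FLASH UMIs came from 1 barcode; without the top barcode of each library the ratio was 2.46. Sln, sarcolipin of muscle, had 80.6% of its 36 FLASH UMIs in 1 barcode and a ratio of 1.37 without it. Among Ptprc-positive barcodes 80.4% of the FLASH UMIs of Reg3g, an airway antimicrobial lectin, and 98.5% of those of Bpifb1 came from 1 barcode. Ccl24, an eosinophil attractant, was 14.4 and 61.3 CPM there (4.24, 2.78 to 6.66) and had a ratio of 1.40 without the Saa3-Prg4 cluster. Msln of mesothelium (39 and 2 UMIs) and Ngp of neutrophils (395 and 2 UMIs) were among the low genes of the same set.

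Most classes made up similar shares of both libraries. Ptprc-positive barcodes were 30.9% of CONV and 29.0% of FLASH, a difference of -1.97 points (-4.58 to 0.640); after thinning to 1000 UMIs they were 18.3% and 19.9% (1.58 points, -0.664 to 3.82). Leukocyte classes together were 46.6% and 50.5% (3.89 points, 1.04 to 6.73). B-like barcodes were 3.90% and 5.92% (2.02 points, 0.790 to 3.27) and capillary-like ones 3.25% and 4.88% (1.63 points, 0.508 to 2.78), both higher in FLASH. Erythroid markers in these classes were also higher, at 92.0 and 9903 CPM in B-like and 656 and 2354 CPM in capillary-like barcodes; their part was not tested. AT2-like barcodes were 16.9% and 14.5% (-2.38 points, -4.45 to -0.306). T-like, alveolar macrophage-like, classical and non-classical monocyte-like, ciliated-like and both fibroblast classes had intervals that held 0. Among Ptprc-zero barcodes 26.2% of CONV and 33.0% of FLASH belonged to leukocyte classes, so the set without a Ptprc UMI is not free of leukocytes. Shares follow dissociation and capture as well as the tissue, and the intervals cover counting error only.

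**Figure D5:**
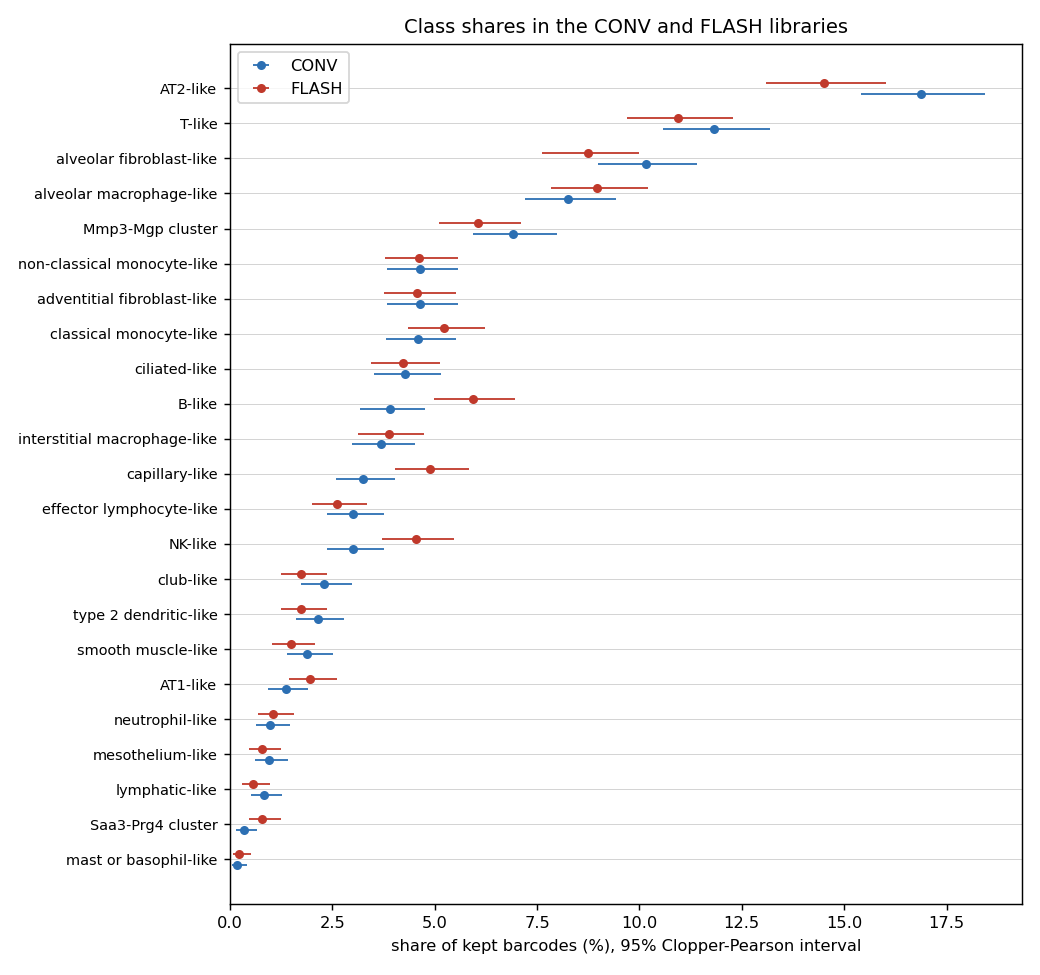
Points give the share of kept barcodes in each class (x axis, %) in CONV (blue) and FLASH (red), with 95% Clopper-Pearson intervals. AT2-like barcodes are 16.9% of CONV and 14.5% of FLASH, B-like ones 3.90% and 5.92%, and alveolar fibroblast-like ones 10.1% and 8.75%.

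Within the 8 largest named classes, genes named by the ranking rule were mostly of low count. In B-like barcodes S100a6, a calcium-binding protein, was 308 CPM in the control, 327 with CONV and 1299 with FLASH (3.97, 3.01 to 5.30), from 23 and 38 barcodes, beside the erythroid markers given above for this class. In alveolar macrophage-like barcodes Fabp5, a fatty acid carrier, was 732, 393 and 703 CPM (1.79, 1.49 to 2.16), with CONV the lowest library. In classical monocyte-like barcodes Apoe, the lipid carrier, was 2513, 2559 and 3930 CPM (1.54, 1.40 to 1.69). In non-classical monocyte-like barcodes Hpgd, which breaks down prostaglandins, was 287, 304 and 628 CPM (2.07, 1.54 to 2.79). In adventitial fibroblast-like barcodes Mmp3, a matrix protease, was 1122, 346 and 157 CPM (0.454, 0.294 to 0.684), and Ctgf, a matrix protein induced by TGF-beta, was 155, 162 and 44.2 CPM (0.273, 0.117 to 0.565). In T-like barcodes Dnajb9, a chaperone of the endoplasmic reticulum, was 105, 37.5 and 87.3 CPM (2.33, 1.293 to 4.3), and it was also higher in adventitial fibroblast-like barcodes (2.52, 1.43 to 4.58). The lowest in T-like barcodes were Banf1, Pdap1 and Nucks1, with 12 to 19 UMIs each in FLASH.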

How the data were processed

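The deposited files hold UMI counts per gene and barcode for 3 droplet libraries (10x 3' chemistry). The authors made these counts with Cell Ranger 2.0 against mm10, per the submitters' processing notes, and the counts are not normalized. The filter removed barcodes under 200 detected genes or above 10% of UMIs from mitochondrial genes. Summed counts of CONV and FLASH were compared as CPM, with exact conditional binomial intervals for ratios, exact Poisson intervals for levels, Clopper-Pearson intervals for shares and Newcombe intervals for their differences, all at 95%. With 1 library per group no test was made, and no count model was used.

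Barcodes were clustered with scanpy 1.11.5 (2000 variable genes, 30 components, 15 neighbours, Leiden resolution 1, no integration) under Python 3.11.15, numpy 2.4.6, scipy 1.17.1 and pandas 2.3.3. Doublets were kept; removing those ranked highest at 0.8% per 1000 barcodes was an alternative. Genes needed 100 UMIs over both libraries to be counted as past 1.5-fold, and 10 UMIs to be counted in a list. List medians used a pseudocount of 1 CPM. Shares with a UMI were also taken after thinning to 1000 UMIs. Named genes were the 6 highest and 6 lowest per population, ranked by the interval bound nearest 1, the 3 highest and 3 lowest in the 8 largest named classes, and up to 4 members of each list. The comparison, the 28 gene lists and the genes followed across classes were chosen with earlier results of these data known; lists are described, not tested. The ratio and its interval were tested on simulated counts that held counting error only. That check does not cover spread between cells, clustering, shares or list medians. Promoter sequences are from RefSeq (GRCm38.p6).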

Additional observations from a re-analysis of the deposited data

How the results depend on the processing

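Results were recomputed under 15 other settings, of which 2 were chosen after seeing the data: leaving out the top barcode of each gene, and leaving out the Saa3-Prg4 cluster. With the same class mix in both libraries 73 genes were past 1.5-fold higher and 68 lower over all barcodes, and 78 higher among Ptprc-zero barcodes. With the Ptprc split made after thinning, 57 were higher and 40 lower among Ptprc-positive barcodes, and the difference in Ptprc-positive share was 1.58 points. With a split by 8 immune genes 214 were lower in the immune set and 57 in the other set. With no minimum count the numbers were 1326 higher and 1196 lower over all barcodes, 1502 and 1879 in the Ptprc-positive and 1485 and 1177 in the Ptprc-zero set. With at least 500 UMIs they were 29 and 7, 15 and 4, and 20 and 7; fewer genes are then measured. Some ratios that were past 1.5-fold crossed 1; ratios nearer to 1 that crossed it are not listed. With the thinned split, in the Ptprc-positive set, these were Reg3g (0.370), Saa3 (0.367), Bpifb1 (0), Il1a (0.782), Krt18 (0.896) and Areg (0.805). With the immune gene split they were Reg3g (0.736), Bpifb1 (0.573), Krt18 (0.886) and Vwf (0.927) in the immune set. In the other set they were Gzmb (0.679), Hbb-bs (0.918), Hba-a1 (0.585), Hba-a2 (0.680) and Hbb-bt (0.721), with a haemoglobin median of -0.55. Without the top barcode they were Bpifb1 (0.723, Ptprc-positive) and Bpifa1 (0.996, Ptprc-zero). Without the Saa3-Prg4 cluster Saa3 was 0.932 over all barcodes, 0.746 in the Ptprc-positive and 0.947 in the Ptprc-zero set. The causes were not tested. Of 235 ratios, 15 that were past 1.5-fold crossed 1 under at least 1 setting. No paired analysis was possible because each group has 1 library. Depth limits genes of few UMIs most, and FLASH was the shallowest library.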
